A study of Mus musculus with 249 samples.

Results

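The genes described here are the ionotropic and metabotropic glutamate receptors (Gria, Grin, Grik, Grid and Grm families) and the potassium channels with their accessory subunits (Kcn families). A probe was a member when its only gene symbol began with 1 of these family names followed by its number or letter, which left out Grina. This gave 90 of the 11633 gene symbols on the array, held by 92 of its 23388 probes. Of these, 22 probes of 21 symbols were glutamate receptors, Grid2ip, a binding partner of the delta receptors, included, and 70 probes of 69 symbols were potassium channels. Kcnmb4os1, an opposite-strand transcript of the Kcnmb4 locus, was a member by its symbol. Symbols annotated in capitals (3 potassium channel probes) were not used. All 92 probes had a value on every array used.

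The brains came from female and male F2 mice of a cross between C57BL/6J and C3H/HeJ in which both parental strains lacked ApoE, so every animal carried the null allele and there was no wild-type control. The mice ate a high-fat Western diet from 8 to 24 weeks of age. Each of the 249 arrays analysed here set Cy3-labelled RNA of 1 brain against a Cy5-labelled reference into which every sample had put the same amount of RNA; the sample labels speak of 330 mice. The animals formed 1 group with 1 array each, sex and genotype are not given for each animal, and the array of animal 144 was left out, which left 248. Each value is the log10 of the animal's signal over that of the pool: 0 is the level of the pool and 0.301 is a factor of 2 above it. A ratio gives no abundance, and levels of different genes were therefore not compared. In brain RNA, fewer cells of a type and less RNA per cell cannot be told apart. There was no repeat array of an animal, so the error of a single value is unknown and the spread between animals includes it.

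Glutamate opens AMPA, NMDA and kainate receptors, which are cation channels assembled from subunits of the Gria, Grin and Grik genes, and it acts more slowly through the G-protein-coupled Grm receptors. Potassium channels set the resting potential, end action potentials and control firing rate. Their pores come from the voltage-gated (Kcna to Kcnd, Kcnh, Kcnq), calcium-activated (Kcnma, Kcnn), inwardly rectifying (Kcnj) and tandem-pore (Kcnk) genes, and accessory subunits (Kcnab, Kcnip, Kcne, Kcnmb) alter gating. Brain regions use different subunits, granule cells of the cerebellum being known for the NMDA receptor subunit Grin2c and the metabotropic receptor Grm4.

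Promoter sequence was at hand in RefSeq's table for 61 of the 90 genes, as 77 promoters of 250 bases before and 50 after the start of transcription. The 3 below are those of members whose values are described in most detail here. Each line gives the 250 bases before the start, 5′ to 3′ on the gene's strand, in build GRCm38.p6, which is the C57BL/6J genome and so 1 of the parental genomes; letters of the other parent were not analysed. Capitals mark TATAAA in Kcnj9 and GGGCGG, the GC box, in Grin2c. The intervals are chr1:172329323-172329572 on the minus strand for Kcnj9, chr8:125994852-125995101 on the plus strand for Kcnk1 and chr11:115267244-115267493 on the minus strand for Grin2c, all upstream of the annotated start.
Kcnj9: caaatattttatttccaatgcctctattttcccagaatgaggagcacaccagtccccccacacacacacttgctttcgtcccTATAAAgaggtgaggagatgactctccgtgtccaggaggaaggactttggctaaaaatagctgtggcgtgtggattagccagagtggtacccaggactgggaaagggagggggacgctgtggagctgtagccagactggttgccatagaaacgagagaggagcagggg
Kcnk1: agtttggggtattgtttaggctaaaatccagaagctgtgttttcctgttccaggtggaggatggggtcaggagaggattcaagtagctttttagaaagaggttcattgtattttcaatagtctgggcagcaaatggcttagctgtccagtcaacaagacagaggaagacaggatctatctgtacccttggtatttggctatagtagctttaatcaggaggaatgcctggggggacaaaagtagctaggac
Grin2c: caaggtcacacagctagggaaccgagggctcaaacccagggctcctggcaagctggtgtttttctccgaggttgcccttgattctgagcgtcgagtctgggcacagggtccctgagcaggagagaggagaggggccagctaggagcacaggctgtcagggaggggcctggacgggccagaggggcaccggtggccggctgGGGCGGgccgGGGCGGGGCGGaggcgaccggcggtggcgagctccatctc
The 250 bases before the start were searched on both strands. GGGCGG occurred in 39 of the 77 member promoters (50.6%) and in 32.7% of the 32851 promoters of the table. TATAAA occurred in 2 (2.60%) against 12.4%, and CACGTG, an E-box, in 6 (7.79%) against 6.02%. TGACGTCA, the cyclic AMP response element, occurred in none against 1.55%. The neuronal silencer element RE1, searched by a consensus that only 1 promoter of the table held, was in none. The median GC content of these 250 bases was 61.2% in the member promoters and 52.4% in all. These are matches of letters only.

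The members varied between animals about as much as the array did. The SD over the 248 animals had a median of 0.0551 over the members and 0.0560 over the 23053 probes measured on at least 90% of the arrays. An SD of at least 0.1, a factor of 1.26, was reached by 8 of the 92 members (8.70%) against 9.24% of all probes. Among the glutamate receptors the median SD was 0.0636 and 3 of 22 reached 0.1, and among the potassium channels it was 0.0547 with 5 of 70. The standard error of an SD, from leaving out each animal in turn, was typically 6.84% of it and at most 21.5%. These SDs are descriptions with no test.

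The potassium channel subunit Kcnip4, a calcium sensor that binds the A-type pore Kcnd2, had the widest spread of all members, with an SD of 0.207 ± 0.0142 (SE, n = 248). Its values ran from -0.831 to 0.306 with a median of 0.0756, and the 5th and 95th percentiles lay 5.13-fold apart. The distribution had a long lower end: a mixture of 2 normal distributions placed 25 animals (10.1%) in a group with a mean of -0.451, 3.41-fold below the mean of the other 223. Kcnd2 itself ran from -0.563 to 0.272 with a median of 0.00680 and an SD of 0.105, and Kcnab1, a beta subunit of the shaker channels, from -0.535 to 0.214 with a median of 0.0347 and an SD of 0.103. All 3 were skewed to low values. The other channels among the 12 widest members were Kcnj12, a strong inward rectifier (SD 0.110), Kcnh1, an ether-a-go-go pore (0.101), Kcnq1, a slow delayed rectifier (0.0968), Kcnj9, a subunit of the G-protein-gated inward rectifiers (0.0951), the shaker pore Kcna1 (0.0930) and the epithelial inward rectifier Kcnj13 (0.0929). The A-type pore Kcnd1 had the narrowest spread, from -0.0509 to 0.0970 with an SD of 0.0188, and Kcnj15, Kcnj5 and Kcnj4, all inward rectifiers, had SDs of 0.0213, 0.0266 and 0.0283.

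All 4 AMPA receptor subunits were measured and they varied more than most members, with SDs of 0.137 ± 0.0110 for Gria4, 0.108 ± 0.00559 for Gria3, 0.0911 for Gria1 and 0.0849 for Gria2. Gria4 ran from -0.362 to 0.785 with a median of -0.0310, and Gria3, which lies on the X chromosome, from -0.316 to 0.371 with a median of -0.0230. Among the NMDA receptor subunits Grin2c had an SD of 0.0891, the 2 probes of Grin2a had 0.0739 and 0.0743, and Grin2b had 0.0631. Grin3b (0.0451), Grin2d (0.0333) and Grin3a (0.0332) varied less. The kainate receptor subunit Grik5 had an SD of 0.0871, above Grik1 (0.0456), Grik2 (0.0415) and Grik3 (0.0304). The delta receptor Grid1 was among the narrowest members at 0.0211, and its partner Grid2ip had 0.0474. Of the metabotropic receptors Grm6, which is best known from bipolar cells of the retina, was the widest at 0.118 ± 0.0142, although 2 animals alone formed a lower group with a mean of -0.738. Grm5 followed with 0.0865, Grm3 with 0.0641, Grm8 with 0.0528 and Grm4 with 0.0398.

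**Figure D1:**
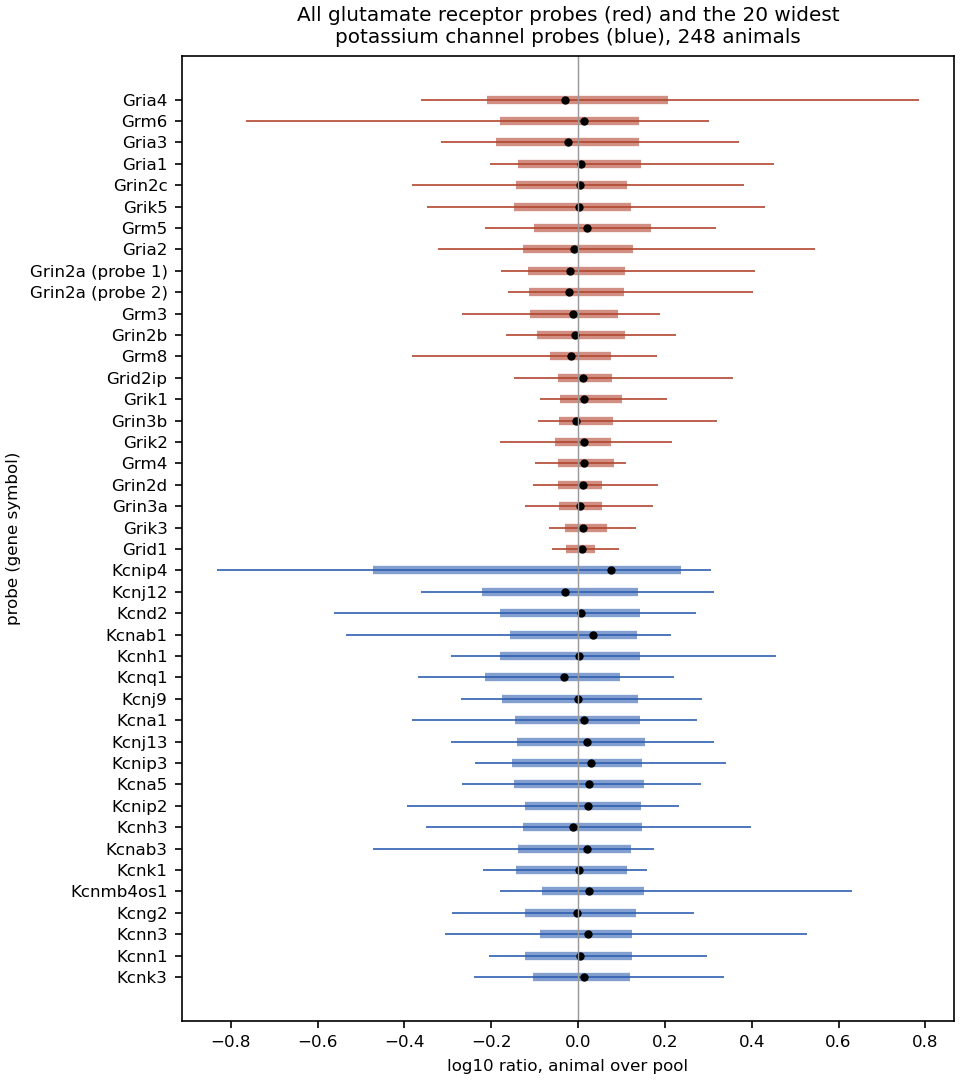
Log10 ratio of animal to pool (x axis) for the 22 glutamate receptor probes (red) and the 20 potassium channel probes with the largest SD (blue), over 248 animals. Thin lines run from the lowest to the highest animal, thick bars from the 5th to the 95th percentile, and points mark medians; Kcnip4 has the widest bar, from -0.473 to 0.237.

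A few arrays supplied many of the extremes. Of the 184 lowest and highest values of the 92 members, 96 lay on the 12 arrays with the largest spread over all probes, 31 of them in animal 178 and 26 in animal 213. Without those 12 arrays the count of members with an SD of at least 0.1 was 5 in place of 8, and 6.26% of all probes reached it. The part of these arrays in the long ends was not tested further. Animal 144, the array that was left out, was low in receptors and channels: 45 of the 92 members (48.9%) lay below all other animals, against 16.5% of all probes, and 6 lay above them, against 19.4%. Of the 22 glutamate receptor probes 15 were below, with Gria2 at -2, the limit of the scale, Grm3 at -1.93 and Grik2 at -1.34. The shaker pore Kcna1 stood at -1.60. The 6 above all other animals were channel genes, Kcnq1 at 0.993 and its accessory subunits Kcne3 at 0.956 and Kcne4 at 0.585, then Kcnj8, Kcnmb1 and Kcnn4 at 0.321, 0.262 and 0.189.

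In an F2 cross a single autosomal locus gives 3 genotypes in shares of 25%, 50% and 25%. A locus on the X chromosome, where Gria3, Kcnd1 and Kcne1l lie, does not. Every probe was asked whether 3 levels in those shares described it better than 1 normal distribution. Kcnj9 was the only member called (1 of 92, 1.09%, against 1.25% of all probes). Its values ran from -0.269 to 0.285 with a median of 0.000246. The fitted levels lay at -0.151, -0.00414 and 0.109 with an SD of 0.0402 within a level, so the lower and upper levels were 1.82-fold apart, and 45, 137 and 66 animals were closest to them. The gain in the Bayesian information criterion was 10.8, just above the required 10. Kcnk1, a weak inwardly rectifying tandem-pore channel, lay just outside with a gain of 4.72 and levels at -0.111, 0.00446 and 0.0779. The call of Kcnj9 was lost with a required gain of 30 and with animal 144 included. It was also lost with 2 components of free weights in place of the 3 levels, where its gain was -1.74. When long-tailed distributions were allowed 8 member probes were called, beside 6.39% of all probes. Levels that lie close together relative to the scatter within them are not called by this rule. The levels are a description, and no genotypes were analysed.

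Genes inherited together lie on 1 chromosome, so each member was also asked how many of its 20 closest probes, those with the largest absolute Pearson r over animals, were of genes on its own chromosome. Of the 92 members 9 had at least 4 (9.78%), against 9.43% of the 12667 probes that could be placed, a threshold chosen after the values were seen. The counts were 18 for Kcnn1, a small-conductance calcium-activated channel on chromosome 8, 15 for Gria1 on chromosome 11, 13 for Kcnj9 on chromosome 1, 9 for Kcnk1 on chromosome 8, 6 for Kcnj12 on chromosome 11 and 5 for Kcnj14. Kcnh7, Grik5 and Kcna6 had 4. At least 12 were found for 2.65% of all placed probes. The chromosomes of these members hold between 4.79% and 8.42% of the placed probes.

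**Figure D2:**
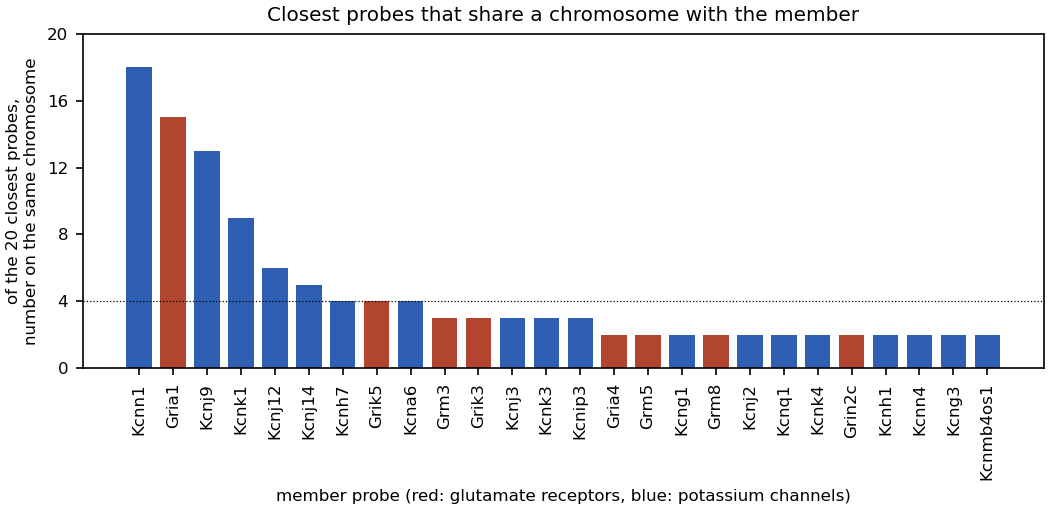
Number of the 20 closest probes that lie on the member's own chromosome (y axis), for the 26 member probes with at least 2 of them, glutamate receptors in red and potassium channels in blue. The dotted line marks 4; Kcnn1, Gria1 and Kcnj9 stand highest at 18, 15 and 13.

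The partners of these members are given as descriptions, since they were picked for their closeness. Distances are places in the order of the measured genes along the chromosome. Kcnj9 moved with Slamf8, a receptor of macrophages 4 places away (r = 0.700, rho = 0.735), and against Apoa2, an apolipoprotein of high-density lipoprotein 26 places away on the other side (r = -0.689, rho = -0.686). Its largest coefficients were with the nucleotidase Bpnt1 (-0.738, 64 places) and with the kinetochore gene Nuf2 (-0.733, 39 places). Partners of both signs thus lay on the same chromosome. The astrocyte channel Kcnj10, the next gene, had an r of 0.309 with Kcnj9, and Dcaf8, 4 places to the other side, had -0.418. These coefficients include the steps between the 3 levels. Among the 45 animals of the lower level r was 0.145 with Slamf8 and 0.240 with Apoa2. Among the 137 of the middle level it was 0.412 and -0.385, and among the 66 of the upper level it was -0.208 and -0.192. The levels were cut from the values of Kcnj9 itself, which narrows its range within a level. These values therefore cannot be set beside r over all animals. Among animals with lower numbers and with higher numbers r was 0.768 and 0.630 for Slamf8, and -0.691 and -0.688 for Apoa2. With the first 5 principal components of all probes as covariates, r was 0.798 and -0.749.

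**Figure D3:**
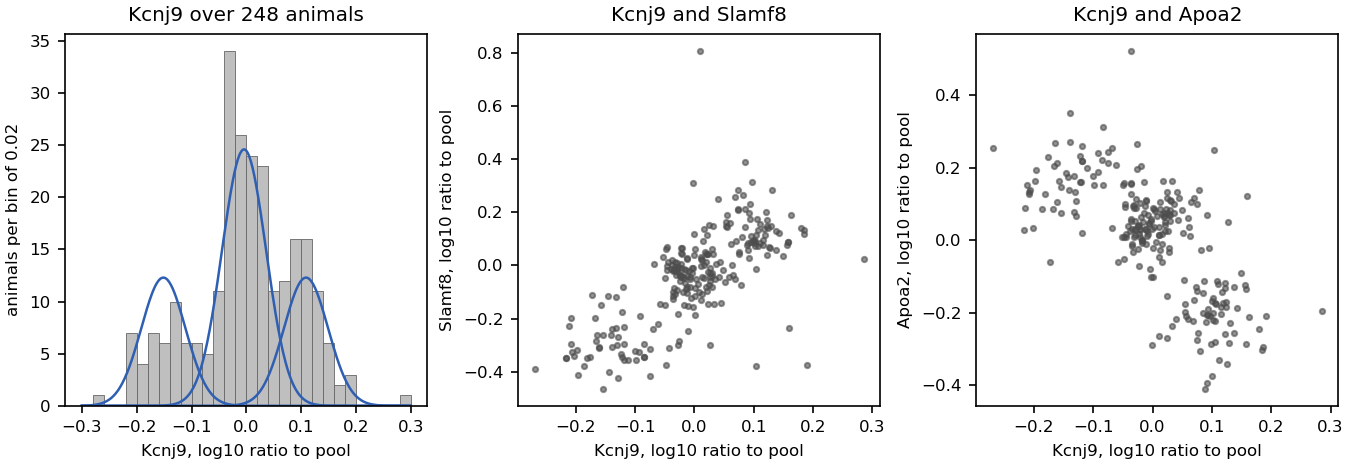
Left, number of animals per bin of 0.02 in the log10 ratio of Kcnj9, with the 3 fitted levels of weights 25%, 50% and 25% as curves. Middle and right, log10 ratios of Slamf8 and Apoa2 (y axes) against Kcnj9 (x axes), 1 point per animal (n = 248); Slamf8 rises with Kcnj9 (r = 0.700) and Apoa2 falls (r = -0.689).

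Gria1 ran from -0.204 to 0.452 with a median of 0.00748, and its closest probe on chromosome 11 was Rasd1, a glucocorticoid-induced Ras protein 23 places away (r = 0.738, rho = 0.755). Omg, a myelin glycoprotein 247 places away, had -0.705 and the actin-binding Pfn1 had 0.690. Sap30l, 2 places from Gria1, had 0.643. Gria1 was in turn among the 20 closest probes of Kcnj12, 37 places away, with an r of 0.555. Kcnn1 ran from -0.206 to 0.297 with a median of 0.00516. It moved with Ssbp4, 12 places away (r = 0.789, rho = 0.778), with the transfer RNA methylase Trmt1 (0.771, 65 places) and with the interleukin receptor Il12rb1 (0.700, 2 places), and against the prostaglandin-degrading Hpgd (-0.687, 59 places). Kcnk1 ran from -0.219 to 0.158 with a median of 0.00142. Its closest partners were Acsf3 (0.701, 34 places) and Galnt2 (0.656, 12 places), and the polarity gene Pard3, next to it, had 0.610. Given 5 principal components, Gria1 with Rasd1, Kcnn1 with Ssbp4 and Kcnk1 with Acsf3 had 0.827, 0.800 and 0.745.

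Many receptor and channel genes moved with the markers of cerebellar tissue, in both directions. The score of a marker list was the mean standardized value of its probes, and each probe on the array was tested against it with limma, with Benjamini-Hochberg adjustment over all 23053 probes. Against the score of 8 cerebellar marker genes, 39 of the 92 members (42.4%) were called at an adjusted p under 0.05, against 19.7% of all probes. The 14 positive and 25 negative calls compare with 9.09% and 10.6% of all probes. Of the 22 glutamate receptor probes 3 were positive and 8 negative, and of the 70 channel probes 11 and 17. Of the 39 calls 38 kept their sign and call with 5 principal components as covariates. With these covariates 45 members were called, and the share of all probes called rose from 19.7% to 30.6%. The members were chosen as brain genes with results of these data known, and no test compared them with other brain genes.

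Grin2c rose by 0.0617 ± 0.00408 (SE, log10, n = 248) per SD of the cerebellar score, with an adjusted p of 1.08e-34 in limma. Its values ran from -0.382 to 0.381 with a median of 0.00396. Grm4, which ran from -0.0994 to 0.110 with a median of 0.0127, rose by 0.0206 ± 0.00219 (limma adjusted p 3.26e-16). Other members with positive calls included Kcnj12 (r = 0.462), Kcnk3 (0.305), Kcnk1 (0.264), Kcnj10 (0.225), the AMPA receptor subunit Gria4 (0.215) and Kcnj6 (0.212), a G-protein-gated inward rectifier. The tandem-pore channel Kcnk2 fell by 0.0323 ± 0.00354 per SD (limma adjusted p 2.34e-15). Negative calls also included the M-current pore Kcnq3 (r = -0.452), the ether-a-go-go-like Kcnh3 (-0.435), Grin2b (-0.327), Grm5 (-0.313), Gria3 (-0.273), Grik5 (-0.267), Grm3 (-0.248) and both probes of Grin2a (-0.193 and -0.189). Thus Grin2c and the other NMDA receptor subunits called, Grin2a and Grin2b, had opposite signs, and so did Grm4 and the called group I and group II receptors Grm5 and Grm3.

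The cerebellar score itself fell into clusters, with 18 animals low and 230 high, and its summed log10 value ran from -5.03 to 2.31 with a median of 0.156. The low animals are not a labelled group. Within the 230, r was 0.449 for Grin2c, 0.442 for Grm4 and -0.414 for Kcnk2, and within the 18 it was 0.442, 0.0989 and -0.565. The count of called members was 31 when ranks were used (15.6% of all probes) and 42 without the 12 widest arrays (24.9%). It was 34 with the split by animal number as a covariate (16.7%). How much of the brain's cerebellum each extract held is not given in the sources used here, and its part in these differences was not tested.

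**Figure D4:**
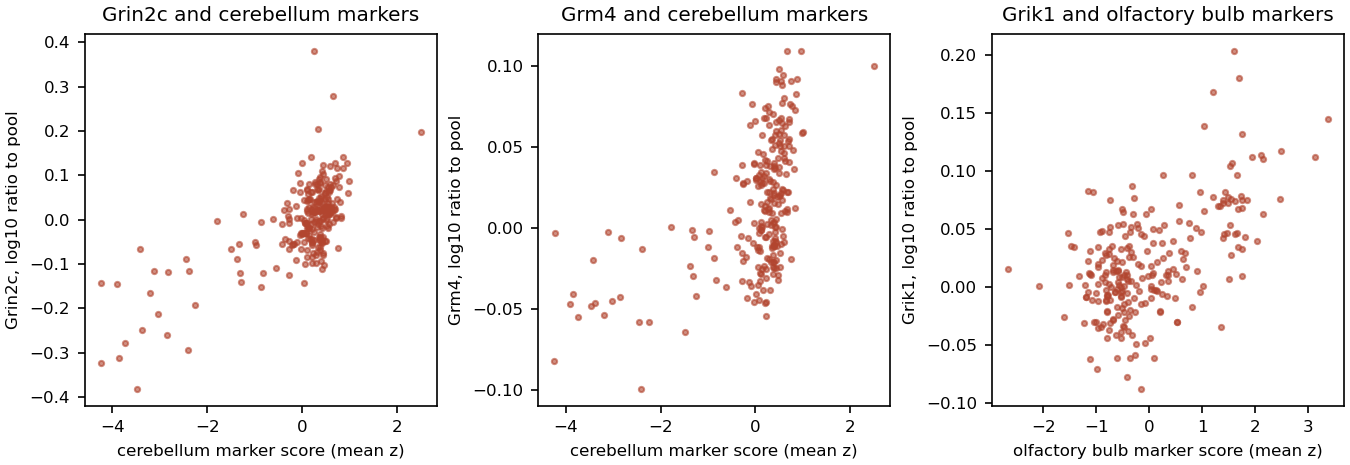
Log10 ratios of Grin2c and Grm4 against the cerebellar marker score and of Grik1 against the olfactory bulb score (x axes, mean standardized value of the markers), 1 point per animal (n = 248). The 18 animals with low cerebellar scores lie at the left, where Grin2c is at its lowest.

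Against 8 markers of the olfactory bulb 10 members were called (6.67% of all probes), 5 positive (2.67%) and 5 negative (4.00%). The kainate receptor subunit Grik1 rose by 0.0260 ± 0.00240 per SD of the score (limma adjusted p 6.34e-20), followed by Kcnh3 (0.0236) and, downwards, Kcnj13 (-0.0266). This score was also clustered: r of Grik1 was 0.0960 within the 191 lower animals and 0.379 within the 57 higher ones. That of Kcnh3 was 0.0167 and 0.140, and that of Kcnj13 was -0.280 and 0.167, so its sign differed between the clusters. For the other regions the counts are given beside the share of all probes. Striatal markers gave 50 calls (56.8% of all probes), with Kcng2, a silent modifier subunit, Kcnh3 and Grik5 rising by 0.0532, 0.0575 and 0.0566. Without the 2 animals of the higher cluster of this score their r was 0.690, 0.673 and 0.659. Cortical glutamatergic markers gave 43 calls (53.2%), with Kcnh3, Grik5 and Kcnk2 rising by 0.0675, 0.0634 and 0.0453. Hippocampal markers gave 30 (32.0%), led by Kcnc4 at 0.0244, Kcne3 at -0.0230 and Kcnk2 at 0.0239. Thalamic markers gave 53 (50.1%), led by Kcnab2 at 0.0267, Kcnj4 at 0.0122 and Kcnip4 at -0.0875. Given 5 principal components 5 members were called against the thalamic score, 1 of them among the 53 with the same sign, and these 3 were not (limma adjusted p 0.370, 0.641 and 0.219). The thalamic score was clustered too. Within its 242 lower animals r of the 3 was 0.440, 0.350 and -0.445, and within the 6 higher ones -0.288, -0.321 and 0.455. Hypothalamic markers gave 29 (40.4%), with Kcnab2, Kcnh3 and Grik5 at 0.0282, 0.0377 and 0.0365. Pituitary markers gave no call in limma (0.763%), while 2 members had an unadjusted p under 0.05.

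Against most scores of cell types the members were called about as often as all probes or less often. General neuronal markers gave 45 calls (56.5% of all probes), 31 of them negative (31.2%). The beta subunit Kcnab2, Kcnj4 and Grin2a were at -0.0386, -0.0153 and -0.0371 per SD. This score was clustered, with 1 animal alone in the lower cluster. Within the 247 higher animals r of Kcnab2, Kcnj4 and Grin2a was -0.572, -0.386 and -0.400. With that animal it was -0.663, -0.543 and -0.502. Interneuron markers gave 30 (30.7%), with Kcnh3 and Kcnk2 at 0.0460 and 0.0293 and Kcnj13 at -0.0495. Astrocyte markers gave 54 (62.7%), with Kcnd2 and Kcnab1 rising by 0.0720 and 0.0603 and Kcnh4 falling by 0.0211. Within the 245 higher animals of this clustered score their r was 0.573, 0.453 and -0.427. Over all animals it was 0.684, 0.584 and -0.584. Oligodendrocyte markers gave 26 (40.9%), with Kcnc4, Kcnj10 and Kcnk1 at 0.0243, 0.0180 and 0.0305. Markers of oligodendrocyte precursors gave 39 (54.0%), with Kcnip2, Grin3a and Kcnj15 at 0.0472, 0.0173 and 0.00882. Microglial markers gave 50 (56.3%), led by Kcng2 at 0.0413, Kcnk4, a mechanosensitive tandem-pore channel, at 0.0246 and Kcnip3 at 0.0441.

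Endothelial markers gave 35 (40.3%), led by Kcnc4, Kcnh2 and Kcnip2 at 0.0232, 0.0207 and 0.0328. Choroid plexus markers gave 42 (44.0%), led by Gria2 at -0.0418, Kcne1l at 0.0294 and Grm8 at -0.0220. Meningeal markers gave 31 (33.4%), led by Grm5 at -0.0382, Kcna3 at -0.0133 and Kcnh8 at 0.0169. Red cell markers gave 1 (0.230%), Grin3a at 0.00997. Neutrophil markers gave 17 (19.4%), led by Kcnj4, 1 of the disagreeing probes of Kcnma1, and Kcnab2 at 0.00928, 0.00821 and 0.0151. Within the 232 lower animals of this clustered score their r was 0.219, 0.208 and 0.174. Within the 16 higher ones it was 0.218, 0.0464 and 0.304. The calls of Kcnma1 and Kcnab2 were lost without the 12 widest arrays (limma adjusted p 0.149 and 0.125). Lung markers gave 34 (39.9%), led by Kcnj4, Kcnj15 and Kcnh4 at 0.0108, 0.00793 and 0.0130. Immediate early genes gave 9 (7.92%), led by both probes of Grin2a at 0.0209 and 0.0193 and Kcnh7 at 0.0111. Glucocorticoid response genes gave 16 (15.7%), led by Kcna5, Kcng2 and Kcnn2 at 0.0314, 0.0227 and 0.0113. Because many scores move together over the array, a call against 1 of them does not place a member in that cell type.

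Most of these calls did not hold with 5 principal components as covariates. Over all 22 scores 202 of the 683 calls kept their sign and call, 38 of them from the cerebellar score. With the components 424 of the 2024 tests of members were called, beside 17.4% of the tests of all probes (34.6% without the components). Against the cortical score 45 members were then called, beside 26.4% of all probes. For the olfactory bulb 4 of 10 were kept, for the striatum 18 of 50, for cortical neurons 20 of 43, for interneurons 21 of 30, for the hippocampus 8 of 30 and for the hypothalamus 12 of 29. Of the calls against general neuronal markers 13 of 45 were kept, against astrocytes 13 of 54, oligodendrocytes 6 of 26, their precursors 15 of 39 and microglia 5 of 50. For endothelium, choroid plexus and meninges 9 of 35, 7 of 42 and 8 of 31 were kept, and the 1 call against red cells was kept. None of the 17 neutrophil and 34 lung calls was kept, and no member was called against either score given the components. Of the immediate early and glucocorticoid response calls 1 of 9 and 2 of 16 were kept. Of the 61 relations with a named member 24 lost their call, among them Kcnab1 and Kcnh4 with astrocytes, Kcng2 and Kcnk4 with microglia, Kcnc4 and Kcnk2 with the hippocampus, Kcnj4 and Grin2a with neurons and both Grin2a probes with immediate early genes, while Kcng2, Kcnh3 and Grik5 with the striatum and Kcnd2 with astrocytes kept theirs.

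Pairs of members correlated about as often as pairs of any probes. Each member was tested against every other probe with limma, and 3976 of the 8188 tests between members of different genes (48.6%) were called, against 50.3% of all tests. The share of the array that a member was called with ran from 6.18% for Kcnk5 to 71.4% for Kcnab1. With 5 principal components as covariates 2250 tests between members were called and 25.7% of all. An absolute r of at least 0.5 was found for 177 of 4184 pairs of member probes (4.23%), against 5.05% of all pairs of probes, and for 9 of the 239 pairs within a subfamily (3.77%). The first 5 principal components held 46.5% of the variance of the array, and the median share of a member's variance in them was 43.4%.

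The pair with the largest r was Kcnab1 and Kcnd2. Both had a few very low animals, and without these r was 0.768 (n = 242), then 0.470 over all 248 given 5 principal components. The kainate receptor subunit Grik5 moved with Kcnh3 (r = 0.799, rho = 0.800) and with Kcng2 (r = 0.780, rho = 0.771). Without the 2 animals farthest from the median these were 0.782 and 0.774, and given 5 components 0.692 and 0.538. The remaining pairs among the 8 largest were Kcng2 with Kcnk4, Kcnip3 with Kcnk4, the inward rectifiers Kcnj15 with Kcnj4, Kcng1 with Kcnh7, and Kcnab2 with Kcnip4. Within the main cluster of animals their r was 0.789, 0.749, 0.676, 0.635 and -0.677. The other most negative pairs joined Kcnip4 with Kcnk15 (-0.441 in 222 animals) and with Kcnj4 (-0.476 in 222 animals), and Grm8 with Kcnk3 (r = -0.688, rho = -0.654). Given 5 components Kcnip4 with Kcnk15 became 0.111 and with Kcnj4 0.287, so their sign turned. These pairs were picked for their r, and their limma adjusted p-values over the 248 animals were at or below 8.78e-34.

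Subunits that assemble into 1 channel varied together in some cases, and in others not or in opposite directions. Of 21 textbook pairs computed 10 had a limma adjusted p under 0.05 over the 248 animals, against 50.3% of all tests. Among these 10, r was negative for Kcnd3 with Kcnip2 (-0.202), Kcna1 with Kcnab2 (-0.346) and Gria1 with Gria2 (-0.182), and positive for the others. In the main cluster of animals Kcnd2 had an r of 0.457 with its partner Kcnip2 (n = 243), 0.316 with Kcnip4 (n = 223) and 0.0681 with Kcnip3 (n = 244; -0.0655 over all 248). With 5 components as covariates the value for Kcnip2 was -0.154 over all 248. The related pore Kcnd3 had -0.118 with Kcnip2 (n = 243). The shaker pore Kcna1 had 0.212 with Kcnab1 (n = 234) and -0.281 with Kcnab2 (n = 232). Kcna6 had -0.0640 with Kcnab2 (n = 234) and 0.0421 over all 248.

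Among the receptor subunits, Grin2a, as the mean of its probes, and Grin2b had an r of 0.467 (n = 245). The AMPA receptor subunits Gria2 and Gria3 had 0.264 (n = 246) and Gria1 and Gria4 had 0.180 (n = 247). Gria2 and Gria4 had 0.0765 (n = 245; -0.0310 over all 248). Gria1 and Gria2, the common pair of AMPA receptors in the forebrain, had -0.184 (n = 246). Over all 248 their r was -0.182 (limma adjusted p 0.00939) and rho was -0.108. It was -0.111 without the 2 animals farthest from the median, and -0.0528 given 5 principal components (limma adjusted p 0.662). The kainate receptor subunit Grik5 had -0.155 with Grik2 (n = 240) and -0.0276 with Grik1 (n = 248). Over all 248 animals the r of Grik5 with Grik2 was 0.0843 (limma adjusted p 0.246), so its sign differed.

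For the G-protein-gated inward rectifiers r was -0.00181 between Kcnj9 and Kcnj6 (n = 243), -0.0399 between Kcnj3 and Kcnj6 (n = 241), -0.0457 between Kcnj3 and Kcnj9 (n = 246) and -0.188 between Kcnj3 and Kcnj5 (n = 246). Their limma adjusted p-values over all 248 were 0.673, 0.10, 0.714 and 0.0735. Over all 248 the r of Kcnj9 with Kcnj6 was 0.0439 and that of Kcnj3 with Kcnj9 was 0.0363. Kcnq1 had 0.185 with its accessory subunit Kcne1 (rho = 0.178, limma adjusted p 0.0270) and 0.00511 with Kcne3 (limma adjusted p 0.960). Given 5 components Kcnj3 with Kcnj5 had -0.197 and Kcnq1 with Kcne1 had 0.0303. The large-conductance pore Kcnma1 and its subunit Kcnmb4 are not given because the probes of Kcnma1 disagreed.

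**Figure D5:**
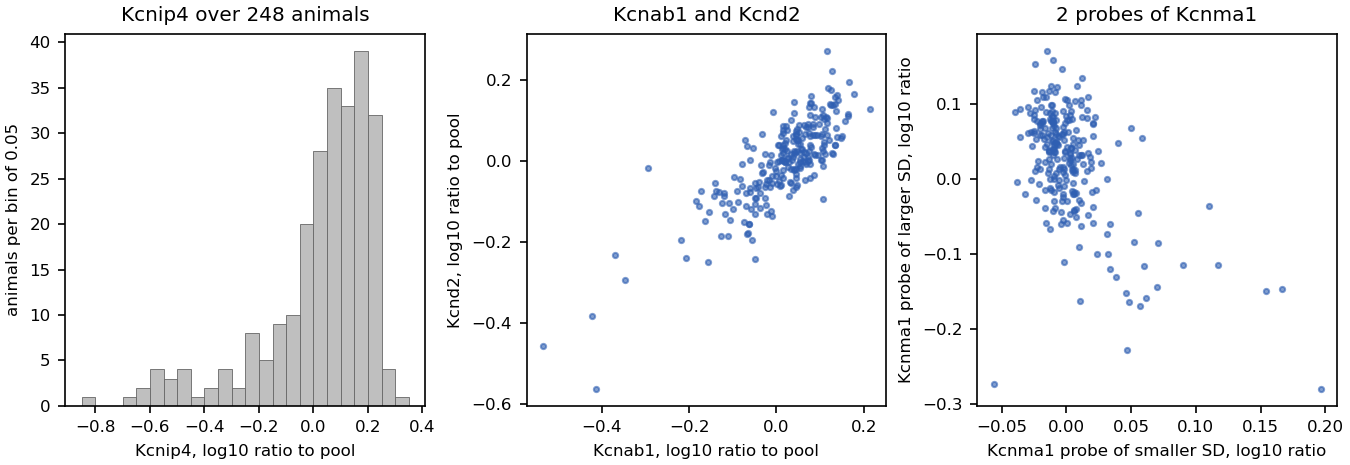
Left, number of animals per bin of 0.05 in the log10 ratio of Kcnip4, with a long lower end. Middle, Kcnd2 against Kcnab1, and right, the 2 probes of Kcnma1 against each other, log10 ratios with 1 point per animal (n = 248); the Kcnma1 probes run against each other.

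Genes with 2 probes gave different pictures. Those of Grin2a carried the same sequence accession and agreed, with an r of 0.937 in the 245 animals of the main cluster. Those of Kcnma1 carried different accessions and had SDs of 0.0297 and 0.0723, and their r was -0.304 in the 227 animals of the main cluster. Over all 248 animals it was -0.550 (rho -0.405) and, given 5 components, 0.337. The mean of both probes was therefore no measure of Kcnma1, and the probe sequences were not analysed here.

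Animal number is the only order in the labels and is not stated to be a batch. Comparing the 124 animals above the median number with the 124 at or below it, 12 of the 92 members were called in limma, against 14.9% of all probes, 2 higher (7.07% of all probes) and 10 lower (7.82%) in the upper numbers. Kcnh3 had means of 0.0253 ± 0.0886 and -0.0392 ± 0.0683 (SD, n = 124 each) in the lower and upper numbers, a difference of -0.0645 ± 0.0100 (SE, limma adjusted p 1.03e-06). Grik5 differed by -0.0560, Kcng2 by -0.0386, the ether-a-go-go-related pore Kcnh2 by -0.0297 and Kcnj13 by 0.0488. The differences were smaller than the SD within each set of numbers. With 5 principal components 3 members were called (1.95% of all probes), Kcnh3, the accessory subunit Kcne4 and Grik1.

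Other genes of the glutamate synapse are given for comparison, with no test. Of 37 probes of transporters, scaffolds and receptor partners 11 had an SD of at least 0.1 (9.24% of all probes), with the glial transporter Slc1a2 at 0.209, the granule cell protein Cbln1 at 0.175, the Purkinje cell transporter Slc1a6 at 0.156 and the scaffold Homer3 at 0.154. None was called discrete. Against the cerebellar score 14 of the 35 that are no markers in it were called (19.7% of all probes), 3 upwards, Homer3 among them (r = 0.882), and 11 downwards. Against animal number 12 of the 37 were called (14.9% of all probes). Of 17 probes of channel partners and related channels none had an SD of at least 0.1, 2 were called against the cerebellar score and 5 against animal number, beside the same shares of all probes.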

How the data were processed

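The authors deposited 1 log10 ratio for each probe and array, computed from 2 dye channels. Per the labels Cy3 marked the animal and Cy5 the pool; scanner, background treatment, dye normalization and centring are unknown here. The values themselves gave base and direction: Y-linked transcripts had upper levels of 0.284 and 0.302, near the 0.301 that a pool of both sexes in equal parts gives when positive values are higher in the animal. Values ended at 2 in size, with 196 at that limit. Array medians ran from -0.00627 to 0.0250 and the median array SD was 0.0764. Where title and source name disagreed on the animal number (1 sample), the latter was taken.

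Probes measured on at least 90% of arrays (23053) were used, with gaps (0.710% of all values) filled by the probe's mean. Spread was the SD over animals with a jackknife SE. A probe was discrete when a mixture of 3 normal distributions with weights of 25%, 50% and 25% gained over 10 in BIC on 1 normal, its outer means lay at least 2 SD apart and its excess kurtosis was below 0. A measure was called clustered when 2 components with 1 variance gained over 10 with means at least 3 SD apart. Marker scores, member pairs and animal number were tested with limma 3.58.1 in R 4.3.3, 2-sided, with Benjamini-Hochberg adjustment over all probes at 0.05. Python 3.11.15 did the rest. Gene order and current symbols came from assembly GRCm38.p6, which placed 12667 probes. The methods were tested on simulated data. P-values set a slope or difference against the remaining spread between animals, which includes the error of their single arrays. The number of animals sets the precision. Pair correlations used the mean of a gene's probes, with the larger of the adjusted p-values of both directions.

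The members and lists were chosen with earlier results of these data known. Named were the 12 members of largest and 5 of smallest SD, every discrete member, the 3 largest relations per marker list, the 8 largest and 4 most negative pairs, every glutamate receptor, members whose probes disagreed, the 5 largest differences by animal number and the closest neighbour of a discrete member. The textbook subunit pairs and the members with chromosomal partners were added after the values were seen. Other settings tried are in the closing section.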

Additional observations from a re-analysis of the deposited data

How the results depend on the processing

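The limits are those of 1 array per animal, ratios without intensities, so signal over background is unknown, and of arrays of wide spread. No paired analysis was possible because the animals form 1 group and share no replicate numbers. Without animal 208 all 61 marker relations and 97 pair correlations compared kept their direction and call. Of the 27 counts compared, some changed by a little. Calls between members went from 3976 to 3935 and calls over all marker scores from 683 to 680. Calls for the olfactory bulb went from 10 to 9 and for the cortical score from 43 to 42. The counts of members above the SD threshold, discrete members and calls by animal number stayed at 8, 1 and 12.

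The count of members with an SD of at least 0.1 was 8 (9.24% of all probes). It became 16 with animal 144 (12.1%), 5 without the 12 widest arrays (6.26%), 4 with the median absolute deviation (4.81%) and 1 at a threshold of 0.15 (2.22%). Discrete members numbered 1 (1.25% of all probes). They numbered 0 with animal 144 (0.924%) or a required gain of 30 (0.855%) and 8 without the kurtosis condition (6.39%). With 2 components of free weights they numbered 47, Kcnj9 not among them, and 63.7% of all probes were called. Calls by animal number went from 12 to 7 with animal 144 (14.9% to 11.9% of all probes) and to 3 given 5 principal components (1.95%). For the olfactory bulb score 10 calls (6.67% of all probes) became 4 without the 12 widest arrays (2.92%). They became 6 with the split by animal number as a covariate (2.98%). For the cortical score 43 calls (53.2%) became 71 with animal 144 (58.6%). Over all 22 scores 683 of 2024 tests of members were called, and 424 given 5 components, while the share of all probes went from 34.6% to 17.4%. Calls went from 39 to 45 for the cerebellum (19.7% to 30.6% of all probes). For the cortical score they went from 43 to 45 (53.2% to 26.4%). They went from 53 to 5 for the thalamus, from 50 to 14 for microglia and from 34 and 17 to 0 for lung and neutrophils. Calls between members went from 3976 to 2250 (50.3% to 25.7% of all tests). The 5 components were added as a setting after the data were seen.

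Signs turned as follows. With animal 144, effects per SD of score became -0.000473 for Kcnc4 and -0.00394 for Kcnip2 with endothelium, -0.00338 for Kcnn2 with glucocorticoid response, and 0.00306 for Kcnab2 and 0.00240 for 1 Grin2a probe with neurons; r became 0.265 for Kcnd2 and Kcnip3 (-0.0655 over the 248), 0.0369 for Kcna1 and Kcnab2, 0.376 for Gria1 and Gria2, 0.276 for Gria2 and Gria4 (-0.0310 over the 248) and 0.128 for Grik1 and Grik5. Given 5 components, effects became -0.00109 for Kcnj4 with thalamus and -0.00383 for Kcnc4 with endothelium, and r became 0.111 and 0.287 for Kcnip4 with Kcnk15 and Kcnj4, 0.0392 for Kcnj3 and Kcnj6, -0.154 for Kcnd2 and Kcnip2 and -0.0390 for Gria1 and Gria4. With the mean of both probes Kcnma1 with neutrophils became -0.00105. The cause was not tested.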
